A study of Saccharomyces cerevisiae YPS1009 with 18 samples.

Results

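Microtubules are built from heterodimers of α-tubulin and β-tubulin, and in budding yeast they form the spindle and the cytoplasmic arrays that position the nucleus. TUB1 and TUB3 encode the α-tubulins, TUB2 encodes the only β-tubulin, and TUB4 encodes γ-tubulin, which nucleates microtubules at the spindle pole body. Tubulin folds with the help of prefoldin and the cytosolic chaperonin, and is then joined into heterodimers by the folding cofactors, of which yeast has Rbl2 (cofactor A), Alf1 (cofactor B), Cin2 (cofactor C), Cin1 (cofactor D) and Pac2 (cofactor E), together with the small GTPase Cin4. Excess free β-tubulin is known to be toxic to yeast cells, and Rbl2 binds it.

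These 10 genes were followed as plasmids in a barcode sequencing screen of plasmid abundance during chronological aging. They are 10 of the 4817 genes in the count table, and they were chosen by their function after earlier results of the same data were known, among them that TUB2 had no counts in AGY1611 at day 28. Comparisons that use the AGY1611 day 28 libraries, against T0 or day 1, are therefore given for these genes as a description with no test. The screen used the MoBY 1.0 collection, a set of barcoded low-copy (CEN) plasmids that each add 1 yeast gene under its native control regions, so the values are abundances of plasmids in a pool of cells and not expression of the gene. No sequence of the barcodes or inserts is shown.

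Both host strains were haploids of the wild oak-soil background YPS1009, and AGY1611 is euploid while AGY1612 carries 1 additional copy of chromosome XII. Both are MATa and carry the ho-Δ1 deletion and a NatMX marker between BER1 and INA1 on chromosome XII, and AGY1612 also lacks his3 and carries His3MX6 at that site on its other copy. The ploidy is given by the study's methods and by a header line of the table, as the sample labels name only the strain numbers. The pooled transformants were sampled at the start (T0), after 1 day and after 28 days in rich medium (YPD) with G418, which retains the plasmids. Each of the 6 groups had 3 replicates. The replicates came from 2 independent transformations of the library, and which replicate came from which transformation is not stated, so p-values measure the spread between these samples. Cells from day 1 and day 28 were plated on selective medium and the lawns were collected, whereas T0 was the starting pool itself.

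The T0 libraries were deeper, with totals of 3491412 to 6298768 counts and 121 to 144 plasmid entries at 0, than the 12 later libraries, with totals of 503569 to 1925967 counts and 269 to 945 entries at 0. Of the 4872 entries, 4508 passed the abundance filter and were tested. The 10 genes had 11 entries, because PAC2 has a pair of them (YER007W_1 and YER007W_2), and 8 entries passed the filter. Abundance is given as CPM, counts per 1e+06 of the TMM-scaled library size. Changes are log2(fold change) ± SE from edgeR's quasi-likelihood fit, and a plasmid was called at FDR < 0.1 over all plasmids tested.

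TUB2 (YFL037W, chromosome VI) was the member whose disappearance could be measured. In AGY1611 its barcode had 1294, 1173 and 1225 counts at T0, 23, 54 and 11 counts at day 1, and 0 counts in all 3 libraries at day 28. In AGY1612 it had 915, 675 and 1042 counts at T0, 46, 41 and 0 counts at day 1, and 0 counts in all 3 libraries at day 28. Every later library was below every T0 library in both strains, and AGY1612 replicate 3 had already no count at day 1. In CPM, TUB2 stood at 175 ± 9.71 (SD, n = 3) in AGY1611 and 171 ± 5.05 in AGY1612 at T0, and at 30.4 ± 23.6 and 15.8 ± 13.8 at day 1.

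At day 28 the loss of TUB2 can only be bounded, since a count of 0 allows up to 3 counts per library. The plasmid was at least 52.9-fold lower than at T0 in AGY1611 and at least 42.8-fold lower in AGY1612. In AGY1612, whose samples were not used in that known value, TUB2 fell at an edgeR FDR of 0.00129. That fit took its spread from all 18 libraries, so the AGY1611 zeros entered it. TUB2 passed the threshold in all 15 alternative analyses, among them a fit of AGY1612 alone, with FDR from 7.42e-09 to 0.0123. As the genes were chosen with earlier results of these data known, these FDRs are not an independent test of the loss. The bounds cover counting error only.

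The decline of TUB2 by day 1 was large in size but was not called. The change from T0 was -2.52 ± 1.04 in AGY1611 (edgeR FDR = 0.25) and -3.42 ± 1.08 in AGY1612 (FDR = 0.113). DESeq2 called TUB2 at day 1 in both strains, with FDR of 0.0829 and 0.00507, and limma with group weights also did, with FDR of 0.0849 and 0.00956. The strain difference in the day 1 change was -0.90 ± 1.40, and its interval reached from -3.84 to 2.04.

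From day 1 to day 28 TUB2 was at least 9.23-fold lower in AGY1611 and at least 3.95-fold lower in AGY1612. In AGY1612 the second decline had an edgeR FDR of 0.0703 in the main fit, which used no pairing, but the replicates of day 1 and day 28 overlapped at 0 counts. The FDR was 0.113 when replicate numbers entered as a block. That block gave each number a common effect over both strains and T0, so it did not pair cultures within a strain. The call was also lost without AGY1612 day 1 replicate 1 (FDR = 0.16) or 2 (0.114), and without AGY1612 day 28 replicate 1 (0.117), 2 (0.214) or 3 (0.143). No other member was called between day 1 and day 28 in AGY1612 by edgeR, where 1.29% of plasmids were called lower. In AGY1611 0.932% of plasmids were called lower over this interval, and as the zeros of TUB2 there were known beforehand nothing is read from its own value.

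**Figure D1:**
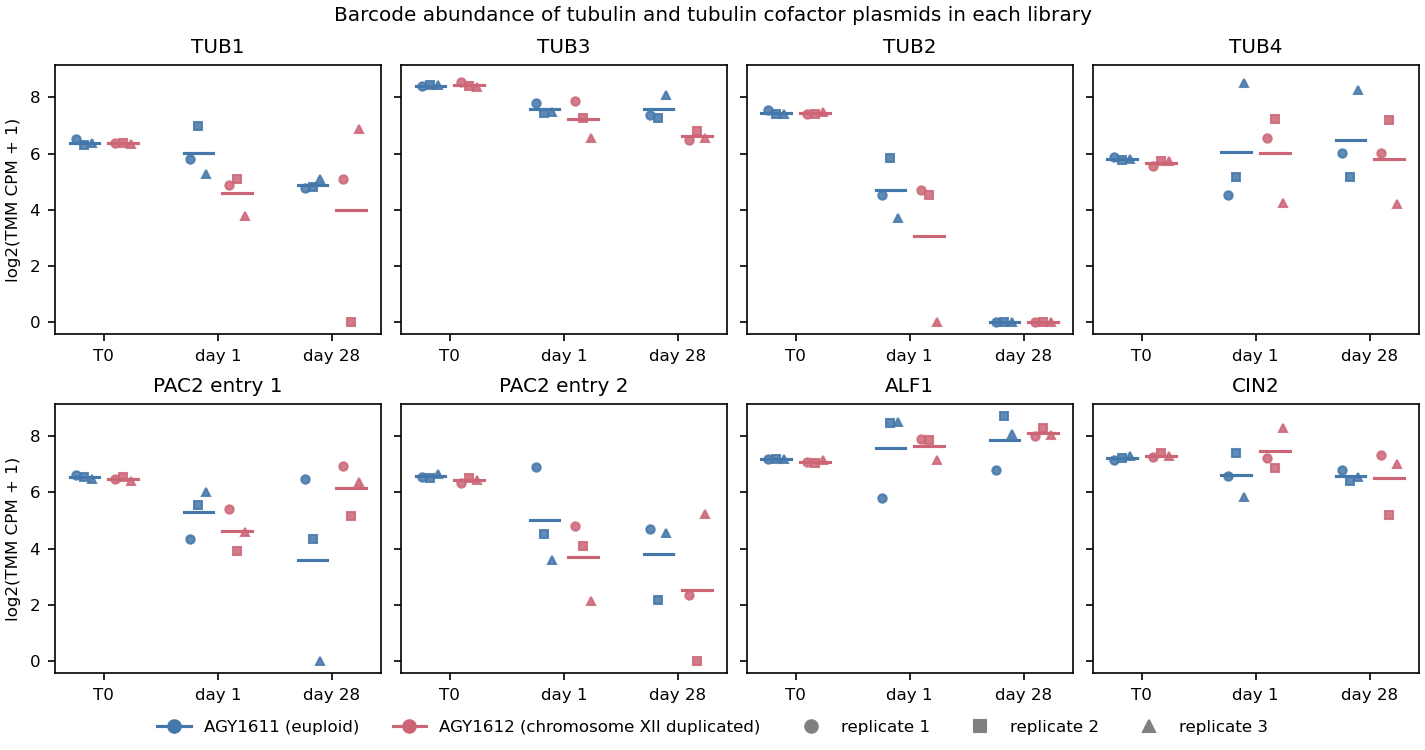
Abundance of the 8 tested plasmid entries in each of the 18 libraries, as log2(CPM + 1) on the vertical axis, by time point and strain. Points are single replicates and lines are means of the plotted log2 values (n = 3). The T0 replicates lie together, TUB2 reaches 0 in all 6 day 28 libraries, and TUB4, TUB1 and the PAC2 entries spread widely at later times.

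The starting abundance of TUB2 was ordinary for the collection. With a mean of 173 CPM over the 6 T0 libraries it stood at percentile 51.5 of all entries, and 2364 plasmids were at least as abundant. As a description, among the 4572 plasmids with at least 10 counts in every T0 library, 78 were at 0 in all 6 day 28 libraries, TUB2 among them.

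The plasmids whose abundance was most like that of TUB2 over the 18 libraries were MET14 (YKL001C), which encodes adenylylsulfate kinase of the sulfate assimilation pathway (Pearson's r = 0.999 of log2 CPM), LOC1 (YFR001W, 0.997) and DEG1 (YFL001W, 0.997). These correlations describe a shared step down after T0 and across libraries of different depth, and no test was made. MET14 had at least 1135 counts in each T0 library, at most 65 at day 1 and 0 at day 28, LOC1 had at least 447, at most 34 and 0, and DEG1 had at least 1646, at most 99 and at most 1. By their systematic names all 3 are the first gene on a chromosome arm, counted from the centromere, and TUB2 is not. Neither plasmid of the chromosomal neighbours of TUB2 was called lower at day 28. YPT1, a Rab GTPase of the secretory pathway, was at 0.18 in AGY1611 (edgeR FDR = 0.872) and rose by 1.94 in AGY1612 (FDR = 0.0317) at day 28, and RPO41, the mitochondrial RNA polymerase, was at 0.28 (FDR = 0.892) and 0.77 (FDR = 0.651). Neighbours of other members were called lower: TMA20, next to PAC2, in both strains (FDR = 0.00178 and 0.000881), and ALO1 (0.0957) and YML083C (0.037), next to TUB1, in AGY1611 and AGY1612. PSO2, next to CIN4, was called lower in AGY1611 (0.0597). NUG1, next to PAC2, was called higher in AGY1611 (0.0395), and the first LSM7 entry, next to ALF1, in AGY1612 (0.069).

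**Figure D2:**
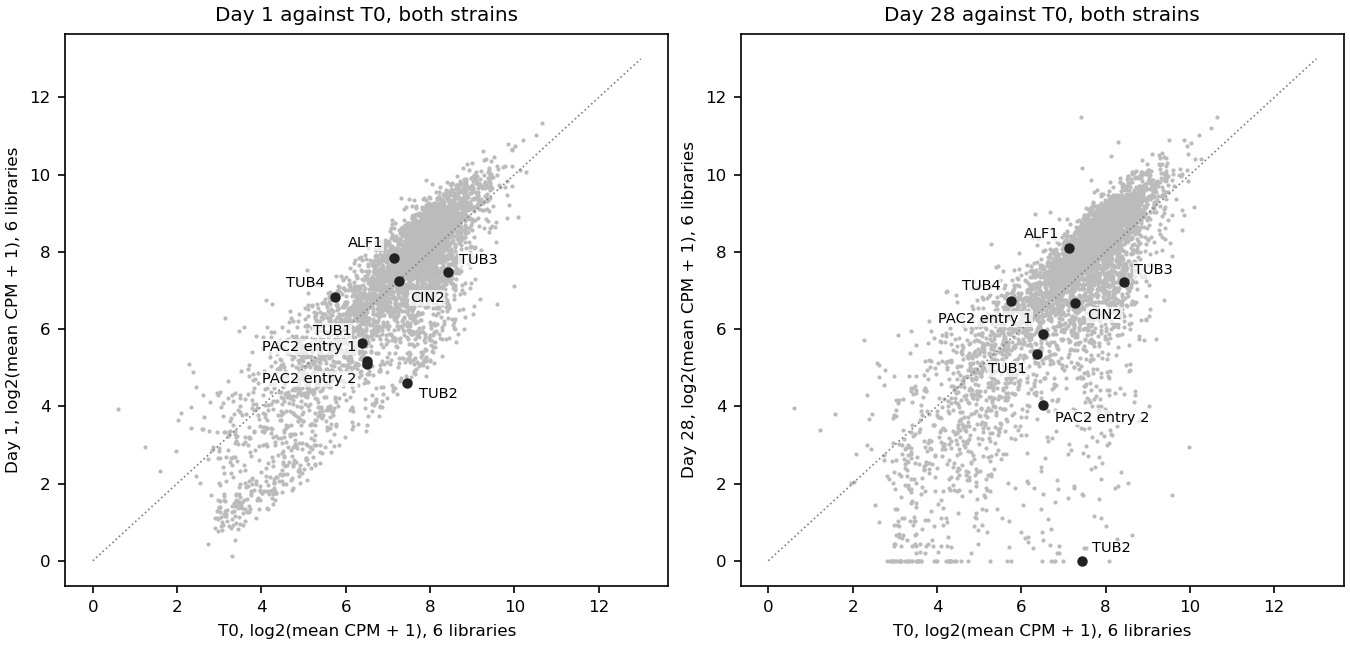
Mean abundance over the 6 libraries of both strains at day 1 (left) and day 28 (right) against T0, both axes as log2(mean CPM + 1), for the 4508 tested plasmids (grey) and the 8 tubulin and cofactor entries (black). The dotted line marks equal abundance. TUB2 lies below the diagonal at day 1 and on the horizontal axis at day 28.

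The α-tubulin plasmid TUB3 (YML124C, chromosome XIII) was the other member called lower by edgeR at day 28 in AGY1612. In AGY1611 it had 335, 345 and 344 CPM at T0, 225, 174 and 179 CPM at day 1, and 166, 153 and 271 CPM at day 28. The AGY1612 libraries held 373, 339 and 332 CPM at T0, 231, 155 and 93.7 CPM at day 1, and 88.3, 110 and 94.1 CPM at day 28. All later libraries lay below all T0 libraries in both strains, and in AGY1612 the day 28 replicates were close together.

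At day 28 TUB3 was lower than at T0 by -1.83 ± 0.42 in AGY1612 (edgeR FDR = 0.00833). The call held in all 15 alternatives, with FDR from 5.52e-06 to 0.0343. In AGY1611 the change was -0.80 ± 0.41, and the strain difference of the 2 changes was -1.04 ± 0.58, with a 95% interval from -2.24 to 0.17. By day 1 TUB3 had changed by -0.83 ± 0.41 in AGY1611 (edgeR FDR = 0.312) and by -1.12 ± 0.41 in AGY1612 (FDR = 0.147), and the latter was called with total-count scaling (FDR = 0.0899), DESeq2 (0.0167) and limma with group weights (0.0641). The plasmid of its neighbour PGA3 was at -0.23 at day 28 in AGY1612 (FDR = 0.867), while that of its other neighbour PHO84, the high-affinity phosphate transporter, fell by 3.32 (FDR = 0.000737).

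The other α-tubulin plasmid, TUB1 (YML085C, chromosome XIII), carries the isoform that yeast needs for growth. In AGY1611 it had 90, 78.5 and 81.4 CPM at T0, 54.7, 127 and 37.6 CPM at day 1, and 26.2, 27.2 and 33.3 CPM at day 28. In AGY1612 it had 81.4, 83.2 and 80.6 CPM at T0, 28.7, 32.9 and 12.9 CPM at day 1, and 32.8, 0 and 118 CPM at day 28. At day 28 all 3 AGY1611 replicates were below T0, while 2 of the 3 AGY1612 replicates were below and 1 was above. The change was -1.53 ± 1.05 in AGY1611 and -0.70 ± 1.03 in AGY1612 (edgeR FDR = 0.69), and without AGY1612 day 28 replicate 2 the latter was 0.04. At day 1 the AGY1612 change was -1.71 ± 1.05 (FDR = 0.362), with all 3 replicates below T0.

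The γ-tubulin plasmid TUB4 (YLR212C) carries a gene of chromosome XII, of which AGY1612 has an additional chromosomal copy. In AGY1611 it had 58.6, 53.1 and 55.4 CPM at T0, 22.1, 34.9 and 362 CPM at day 1, and 64.1, 35.2 and 307 CPM at day 28. The AGY1612 libraries held 46, 52.4 and 51.8 CPM at T0, 93.3, 148 and 18.1 CPM at day 1, and 63.6, 147 and 17.3 CPM at day 28. The replicate that was highest at day 1 was highest again at day 28 in both strains, replicate 3 in AGY1611 and replicate 2 in AGY1612. No direction was shared by the replicates, and the changes at day 28 of 1.28 ± 1.01 in AGY1611 and 0.60 ± 1.00 in AGY1612 (edgeR FDR = 0.728) rested on those cultures. Without AGY1611 day 28 replicate 3 the first was -0.05, and without AGY1612 day 28 replicate 2 the second was -0.17.

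Pac2 and Alf1 are the cofactors that bind α-tubulin. The 2 entries of PAC2 (chromosome V) differed in their course. YER007W_1 had 97.7, 91.7 and 87.9 CPM at T0 in AGY1611, 19.2, 46.5 and 64.1 CPM at day 1, and 88.5, 19.3 and 0 CPM at day 28. In the aneuploid this entry had 87.8, 92 and 83.9 CPM at T0, 41.9, 14 and 23.2 CPM at day 1, and 123, 34.9 and 82.2 CPM at day 28. All day 1 replicates of this entry were below T0 in both strains, and the day 28 replicates overlapped T0 in both. Its day 28 change was -1.35 ± 1.00 in AGY1611, -3.10 without AGY1611 day 28 replicate 1, and -0.14 ± 0.99 in AGY1612 (edgeR FDR = 0.942), where it was 0.37 without AGY1612 day 28 replicate 2.

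YER007W_2, the other PAC2 entry, had 93.6, 91 and 99.5 CPM at T0 in AGY1611, 119, 22.2 and 11.1 CPM at day 1, and 25.3, 3.52 and 22.7 CPM at day 28. In the aneuploid this entry had 80.3, 90.5 and 85.6 CPM at T0, 27, 16.2 and 3.44 CPM at day 1, and 4.11, 0 and 36.8 CPM at day 28. All day 28 replicates were below all T0 replicates in both strains. The change was -2.47 ± 1.23 in AGY1611 and -2.63 ± 1.24 in AGY1612 (edgeR FDR = 0.175), and without AGY1612 day 28 replicate 3 the latter was -5.59 (FDR = 0.0336). DESeq2 (FDR = 0.0654) and limma with group weights (0.00425) called it with all libraries.

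ALF1 (YNL148C, chromosome XIV) was the member whose day 28 replicates were all above T0 in the aneuploid. Its AGY1612 libraries held 133, 131 and 142 CPM at T0, 240, 230 and 142 CPM at day 1, and 259, 313 and 261 CPM at day 28, so all 3 day 28 replicates were above T0. The difference of 1.04 ± 0.56 was not called by edgeR (FDR = 0.237), and of the alternatives limma with group weights called it (FDR = 0.0897). In AGY1611 ALF1 had 145, 147 and 145 CPM at T0, 54.7, 353 and 363 CPM at day 1, and 109, 417 and 271 CPM at day 28. Replicate 1 was below T0 at both later times while the other 2 were above, and the day 28 change was 0.87 ± 0.55.

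CIN2 (YPL241C, chromosome XVI), the plasmid of cofactor C, had 141, 150 and 157 CPM at T0 in AGY1611, 96, 168 and 56.4 CPM at day 1, and 111, 84.4 and 92.4 CPM at day 28. In AGY1612 it had 151, 166 and 156 CPM at T0, 148, 116 and 315 CPM at day 1, and 160, 35.8 and 129 CPM at day 28. The AGY1611 day 28 replicates were all below T0 and those of AGY1612 overlapped it. The day 28 change was -0.64 ± 0.59 in AGY1611 and -0.55 ± 0.59 in AGY1612 (edgeR FDR = 0.58), and the latter was 0.02 without AGY1612 day 28 replicate 2.

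For 3 cofactors no change was tested, as their entries did not pass the abundance filter. RBL2 (YOR265W, chromosome XV), which encodes the β-tubulin binding cofactor A, had 11, 21 and 13 counts at T0 in AGY1611 and 12, 8 and 18 in AGY1612. At day 1 it had 1, 0 and 0 counts in AGY1611 and 2, 0 and 0 in AGY1612, and at day 28 it had none in any library. The T0 means of 2.13 and 2.42 CPM were under the 3.3 and 4.01 CPM that 3 counts per library stand for at day 28. A loss of RBL2 by day 28 could therefore not be sized with this bound. Its day 1 means of 0.32 CPM in AGY1611 and 0.368 CPM in AGY1612 were lower than at T0, on few counts and with no test. CIN1 (YOR349W, chromosome XV), which encodes cofactor D, had at most 3 counts in any T0 library and none later. CIN4 (YMR138W, chromosome XIII) had no count in any of the 18 libraries.

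**Figure D3:**
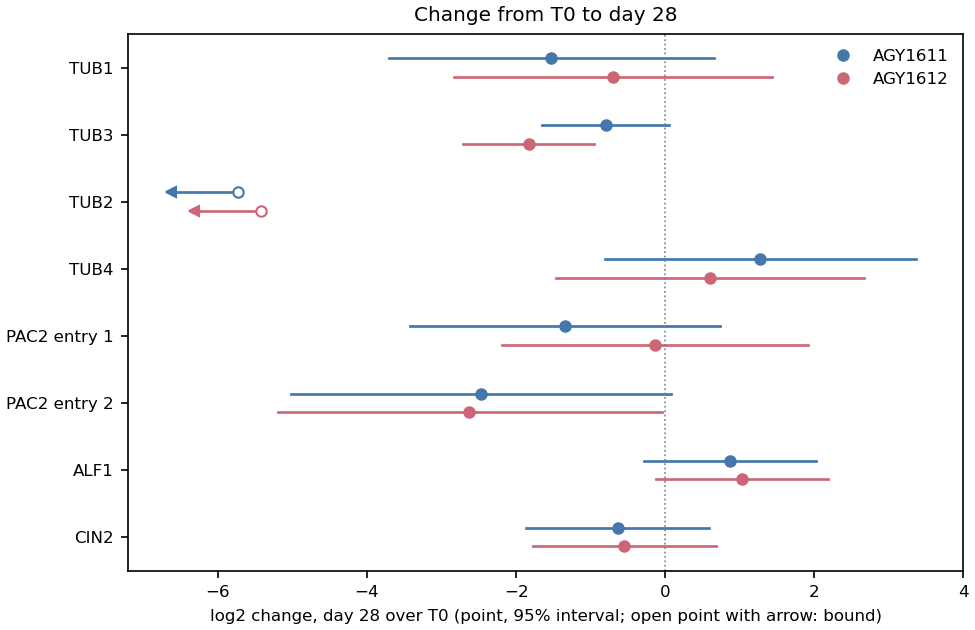
Change from T0 to day 28 in AGY1611 (blue) and AGY1612 (red) for the 8 tested entries, as log2(fold change) on the horizontal axis with 95% intervals. Open points with arrows are lower bounds on the loss of TUB2, at 5.73 and 5.42 log2 units. The intervals of TUB3 and of the second PAC2 entry in AGY1612 lie below 0, the latter without a call (edgeR FDR = 0.175). Those of TUB1, TUB4, the first PAC2 entry, ALF1 and CIN2 include 0 in both strains.

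Counted together, 2 of the 8 tested entries were called lower at day 28 in AGY1612 (TUB2 and TUB3) and none higher, where 12.9% of all tested plasmids were called lower and 6.99% higher. In AGY1611, the comparison behind the choice of the genes, 1 of 8 was past the threshold (TUB2, lower), beside 9.49% of all plasmids lower and 5.12% higher, and nothing is read from it. The median change of the 8 entries was -1.07 in AGY1611 and -0.63 in AGY1612, also with TUB2 at its bound, beside 0.16 and 0.19 for all plasmids tested. These all-plasmid medians depended on the scaling and moved by -0.18 and -0.15 with RLE factors and by -0.29 in both strains with total counts. Among all calls at day 28 the share called lower was 64.9% in both strains with TMM, 80% in AGY1611 and 75.4% in AGY1612 with RLE, and 87.4% and 85.2% with total counts. TUB2 and TUB3 were called lower in AGY1612 under all 3 scalings.

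At day 1 none of the 8 entries was called in either strain by edgeR, where 0.288% of plasmids in AGY1611 and 2.86% in AGY1612 were called in either direction. Of the 8, 1 in AGY1611 and 2 in AGY1612 had an unadjusted p under 0.05. Of all 4508 plasmids, at least 481 and fewer than 818 had such a p in AGY1611, and at least 380 and fewer than 1024 in AGY1612. DESeq2 called 1 and 2 of the 8, where it called 333 and 513 of all plasmids. Limma with group weights called 1 and 3, where it called 358 and 925 of all plasmids. By the positions of the replicates alone, all 3 day 1 libraries lay below all 3 T0 libraries for 3 of 8 entries in AGY1611 (TUB2, TUB3 and YER007W_1), beside 26.8% of all plasmids. In AGY1612 they did so for 5 of 8 (TUB1, TUB2, TUB3 and both PAC2 entries), beside 25.9%. At day 28 this held for 5 of 8 in AGY1611 (TUB1, TUB2, TUB3, YER007W_2 and CIN2), beside 25.4%, and for 3 of 8 in AGY1612 (TUB2, TUB3 and YER007W_2), beside 27.3%. The reverse, all 3 above all 3, held for ALF1 in AGY1612 at day 28, beside 21.1%.

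The replicates spread apart after T0. The coefficient of variation of the tested entries was 0.682% to 7.21% in the T0 groups, with a median of 5%, and 11% to 148% in the 30 later groups with counts, with a median of 58.8%. Depth, plating and culture time all changed between T0 and the later samples and cannot be told apart here.

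No strain difference was called for any member. In the starting pools the AGY1612 to AGY1611 differences of the 8 entries ran from -0.15 to 0.08, and 0% of all plasmids were called. At day 1 the strain differences in the change from T0 ran from -1.55 for YER007W_2 to 0.77 for CIN2, all 8 intervals included 0, and 0% of plasmids were called (edgeR FDR = 0.998 for each of the 8). No member had an unadjusted p under 0.05 in these comparisons, and DESeq2 and limma with group weights called none. At day 28 the differences of the 7 entries with counts ran from -1.04 for TUB3 to 1.21 for YER007W_1, and all 7 intervals included 0, while 0.266% of all plasmids were called. These intervals reached from -3.59 to 4.11 over the 7 entries, so large strain differences stayed within the error of 3 replicates. For TUB2 both strains were at 0 and no difference can be sized.

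Related lists named 38 other genes that fold tubulin or build, bind and move along microtubules. The 36 entries that matched them stood for 33 of these genes, and 33 entries were tested. At day 28, 6 were called lower and 1 higher in AGY1611, and 7 lower and 1 higher in AGY1612. Over all plasmids 9.49% were lower and 5.12% higher in AGY1611, and 12.9% and 6.99% in AGY1612. The median change of the related entries was 0.02 and 0.03, beside the 0.16 and 0.19 of all plasmids. At day 1 against T0 edgeR called none of the 33, with 5 in AGY1611 and 7 in AGY1612 at an unadjusted p under 0.05. Of all 4508 plasmids, at least 481 and fewer than 818 had such a p in AGY1611, and at least 380 and fewer than 1024 in AGY1612. DESeq2 called 2 and 3 of the 33, beside 333 and 513 of all plasmids. Limma with group weights called 2 and 7, beside 358 and 925. For a strain difference none was called by any of the 3 tools, with 1 at an unadjusted p under 0.05 at day 1 and 1 at day 28.

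The lists of the folding machinery upstream of the cofactors and of the γ-tubulin complex held 4 to 6 tested entries each. That is too few to set against the shares of all plasmids at day 28. These were 9.49% lower and 5.12% higher in AGY1611, and 12.9% and 6.99% in AGY1612. Of the 6 tested chaperonin subunits 1 was lower in both strains, and 1, TCP1, was higher in AGY1612 by 1.44 (edgeR FDR = 0.0557). CCT3, the subunit that was lower, had 104 to 145 counts at T0 in AGY1611 and 80 to 110 in AGY1612, and 0 counts in all 6 day 28 libraries, at least 5.43-fold and 4.62-fold lower (FDR = 0.0118 and 0.0111). It passed the abundance filter only through its T0 libraries. An entry kept in this way can be called lower later but hardly higher, so this call is a description. None of the 6 plasmids for prefoldin subunits was called, with a median change of 0.73 in AGY1611 and 0.04 in AGY1612. None of the 4 plasmids for the γ-tubulin complex and its receptors, which act with Tub4 at the spindle pole body, was called by edgeR (median -0.18 and 0.15). In both lists no unadjusted p was under 0.05 at day 28 and DESeq2 called none. Limma with group weights called 1 of the γ-tubulin complex list in AGY1612. In that comparison the analyses that left out no library, limma among them, called 595 to 1334 of all plasmids.

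Among the 5 tested entries of microtubule-associated proteins 1 was called lower in each strain. BIK1, a CLIP-170 homologue, was lower by -3.56 in AGY1611 (edgeR FDR = 0.043) and at -0.75 in AGY1612 (FDR = 0.651). The second entry of BIM1, the EB1 homologue, was at -0.45 in AGY1611 (FDR = 0.687) and lower by -1.71 in AGY1612 (FDR = 0.0728), while the first BIM1 entry was at 1.28 and 0.91 (FDR = 0.102 and 0.234). Among the 12 tested entries of motors, dynactin and their regulators, 4 were lower and 1 higher in AGY1611 and 5 lower and none higher in AGY1612, beside the 9.49% and 12.9% of all plasmids called lower. Their median was -0.96 and -1.29, or -0.93 and -0.92 with plasmids at 0 placed at their bound. KIP1, a kinesin-5 of the spindle, fell from 98.3 CPM to 1.51 ± 2.62 CPM in AGY1611, with at most 3 counts in any day 28 library, and from 97.6 CPM to 0.684 ± 1.19 CPM in AGY1612, with at most 1 (FDR = 0.0148 and 0.00786). NIP100, the large dynactin subunit, was at least 3.03-fold and 2.01-fold lower with 0 counts at day 28 (FDR = 0.0289 and 0.0338). KAR3, a kinesin-14, has a pair of entries. The first was at least 1.92-fold and 1.77-fold lower, with 40 to 52 and 23 to 47 counts at T0 and none at day 28 (FDR = 0.052 and 0.0433), and the other was at -1 in AGY1611 (FDR = 0.249) and was lower by -1.54 in AGY1612 (FDR = 0.0585). The remaining calls of the list were in 1 strain each, the second entry of the kinesin-8 gene KIP3, with 0 counts at day 28 (FDR = 0.0352), and NDL1, a dynein regulator, which was higher by 0.97 (FDR = 0.0395), in AGY1611, and CIK1, the partner of Kar3, which was lower by -1.38 (FDR = 0.0604), in AGY1612. Like CCT3, NIP100, the first KAR3 entry and the second KIP3 entry passed the abundance filter only through their T0 libraries. Their calls are therefore a description too, and they enter the counts of this list.

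**Figure D4:**
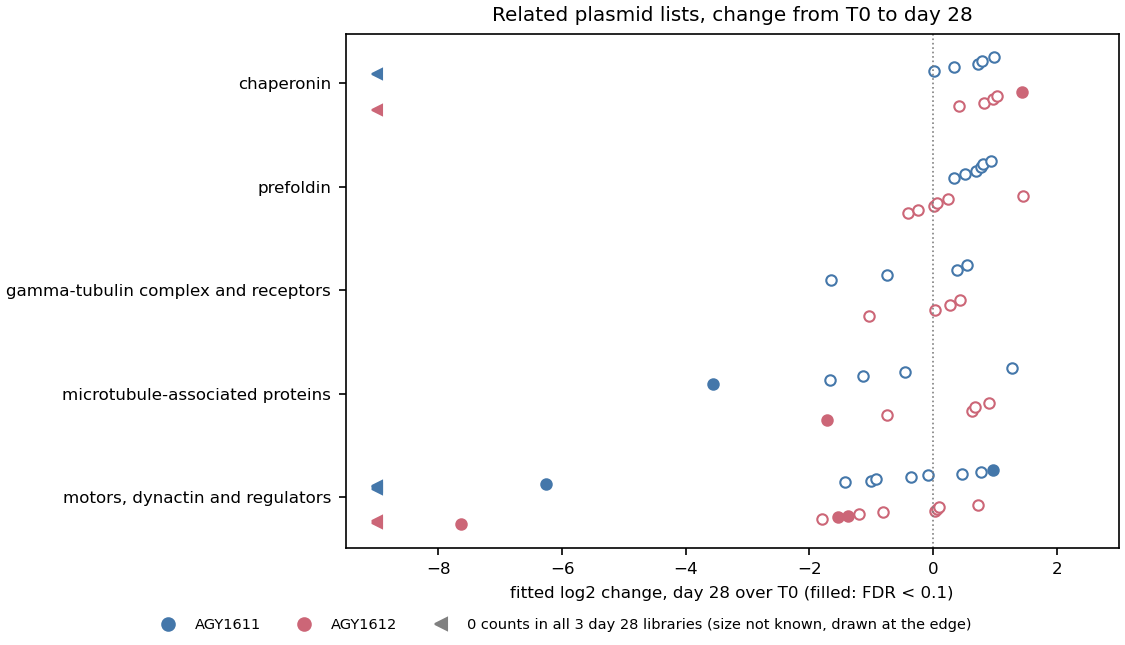
Fitted log2(fold change) from T0 to day 28 for the 33 tested plasmids of the related lists in AGY1611 (blue) and AGY1612 (red). Filled symbols are at FDR < 0.1, and triangles at the left edge are plasmids with 0 counts in all 3 day 28 libraries, whose size of change is not known. The 4 plasmids called lower in both strains are CCT3, KIP1, NIP100 and the first KAR3 entry. Of these, CCT3, NIP100 and the first KAR3 entry passed the abundance filter only through their T0 libraries.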

How the data were processed

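The authors deposited raw counts of barcode reads, 1 row per plasmid and 1 column per sample, and all 18 columns were used. Their counting program is not given in the sources used here, and no genome build is named, so no coordinates are given. Gene symbols and chromosomes came from RefSeq (4865 of 4872 rows matched). Rows with the suffixes 1 and 2 (54 genes) were kept apart. Counts were filtered with filterByExpr, scaled with TMM and fitted with 1 coefficient per group in edgeR 4.0.16 (R 4.3.3). The quasi-likelihood F-test was two-sided, with Benjamini-Hochberg adjustment over all plasmids tested. A group at 0 was bounded at 3 counts per library.

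The members and lists were chosen with earlier results of these data known. All members were named, related plasmids when called at day 28 in both strains (plasmids called in 1 strain and the chromosomal neighbours were added after their values were seen), and the 3 plasmids most like TUB2. Replicate numbers come from the sample titles. Deviations from group means of same-numbered day 1 and day 28 samples correlated at 0.32, 0.46 and 0.47 in AGY1611 and 0.21, 0.32 and 0.16 in AGY1612. The correlations of T0 with later samples lay between -0.07 and 0.11. Same-numbered T0 samples of the different strains, which are not shared cultures, correlated at -0.05, 0.22 and -0.19. Every AGY1611 value of day 1 with day 28 was above these, but 0.21 and 0.16 in AGY1612 were not. Pairing by number is therefore less clear in AGY1612, and differently numbered samples were not compared. Alternatives were RLE factors, total counts, no filter, at least 10 counts in every T0 library, DESeq2 1.42.0, the replicate block, only the strain or time points compared, group weights in limma 3.58.1, FDR < 0.05 and leaving out each library. The fits were tested on simulated data. For 1 gene of the related lists the result is not reported here.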

Additional observations from a re-analysis of the deposited data

How the results depend on the processing

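TUB2 and TUB3 were called lower in AGY1612 at day 28 in all alternatives. The number of entries called at day 28 against T0, 1 in AGY1611 and 2 in AGY1612, was 3 and 3 with DESeq2, 3 and 5 with group weights in limma, and 1 to 2 and 2 to 3 when single libraries were left out. The AGY1611 numbers are only a description, since its zeros of TUB2 were known beforehand. Of all 4508 plasmids, DESeq2 called 753 and group weights 1072 in AGY1611 at day 28. In AGY1612 the analyses that left out no library called 595 to 1334 plasmids. At day 1 against T0, none was called in either strain. DESeq2 called 1 in AGY1611 and 2 in AGY1612, group weights 1 and 3, and total counts 2 in AGY1612. Over all plasmids at day 1, DESeq2 called 333 and 513, group weights 358 and 925, and total counts 222 in AGY1612. For day 28 against day 1, 1 was called in each strain, in AGY1611 only as a description since its zeros of TUB2 were known beforehand, and group weights called 0 in both strains, and fitting AGY1612 alone or FDR < 0.05 gave 0 in AGY1612. Leaving out single libraries gave 0 to 1 in each. With the replicate block, 0 were called in AGY1612 (TUB2 at FDR = 0.113), and the block changed no other call of a member. The cause of these changes was not tested. No entry was called for a strain difference or between the starting pools under any alternative.

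Of 22 single-plasmid results, 8 kept their direction and side of the threshold in every alternative, and 5 turned direction when 1 library was left out. Leaving out single libraries gave, at day 28 in AGY1612, -2.23 to 0.04 for TUB1, -0.17 to 1.19 for TUB4, -0.46 to 0.37 for the first PAC2 entry and -0.81 to 0.02 for CIN2, and the value past 0 was in each case without day 28 replicate 2. In AGY1611 it gave -0.05 to 1.81 for TUB4, with -0.05 without day 28 replicate 3. Over all plasmids, leaving out single libraries moved the calls at day 28 against T0 from 659 to between 323 and 1043 in AGY1611 and from 898 to between 491 and 1027 in AGY1612, and the other alternatives gave 420 to 1072 and 595 to 1334. At day 1 the 13 calls in AGY1611 ranged from 0 to 358 and the 129 in AGY1612 from 0 to 925. From day 1 to day 28 the 43 calls ranged from 0 to 150 and the 69 from 10 to 218, and the 12 strain differences at day 28 from 1 to 53. Later libraries held 503569 to 1925967 counts, and 3 counts per day 28 library stood for 3.3 CPM in AGY1611 and 4.01 CPM in AGY1612. A loss by day 28 could not be sized for a plasmid with a T0 mean near or under these values.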
